A study of Mus musculus with 48 samples.

Results

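Molecular chaperones of skeletal muscle were followed through 79 genes of the heat shock protein, DNAJ, and heat shock factor families, out of 56748 genes in the deposited expression table. Members were taken by name alone: protein-coding genes whose symbols begin with *Hspa*, *Hspb*, *Hspd*, *Hspe*, *Hsph*, *Hsp90*, *Dnaja*, *Dnajb*, *Dnajc*, or *Hsf*, followed by their number. They comprised 14 HSP70 and HSP110 genes, 3 HSP90 genes, 3 chaperonin genes, 8 small heat shock protein genes, 4 DNAJA genes, 13 DNAJB genes, 28 DNAJC genes, and 6 genes of the HSF name series. The name rule also takes in genes whose products are not chaperones in the narrow sense, such as *Hsf2bp* (a binding partner of HSF2) and *Hspb11* (a component of intraflagellar transport). Of the 79 members, 68 had enough reads to enter the tests across 15637 genes, and 11 did not: *Dnajb3*, *Dnajb7*, *Dnajb8*, *Dnajb13*, *Dnajc5b*, *Dnajc6*, *Dnajc22*, *Hsf2bp*, *Hsf3*, *Hsf5*, and *Hspb9*.

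The study asked how a pancreatic tumor and the transcription factor FOXP1 change the daily program of transcription in wasting muscle. RNA was sequenced from the tibialis anterior of 48 male mice, aged 39 to 55 weeks, in 24 groups of 2 mice that combine genotype (WT or FoxP1SkmKO), condition (control or KPC), and circadian time (CT18, CT22, CT26, CT30, CT34, or CT38). KPC mice had murine KPC pancreatic cancer cells injected into the pancreas, and control mice had sterile PBS injected at the same site. All mice were entrained to 12 h of light and 12 h of darkness with lights on at 6 am, and were then kept in constant darkness, so that CT18 corresponds to midnight. FoxP1SkmKO mice are homozygous for a floxed *Foxp1* allele and carry Cre driven by the ACTA1 promoter of muscle fibers, and the other cells of the muscle keep the gene. For WT mice the sources differ: the sample labels give C57BL/6J, whereas the series description gives floxed mice without Cre. With each genotype and condition collected through 6 circadian times, 12 libraries stand behind each of the 4 combinations.

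Libraries held 14480867 to 20787784 reads on genes, with a median of 16602092. The 10 markers of fast skeletal muscle summed to between 53684 and 75678 FPKM (fragments per kilobase of transcript, scaled to library size) in all 48 libraries. Liver markers summed to a median of 0.0388 FPKM in WT control mice, with a highest value of 2.09. Their highest sums were 8.37 FPKM in WT KPC, 59.2 in FoxP1SkmKO control, and 200.9 in FoxP1SkmKO KPC mice. *Foxp1* measured 0.630 ± 0.140 FPKM in WT control, 0.629 ± 0.102 in WT KPC, 0.578 ± 0.0682 in FoxP1SkmKO control, and 0.544 ± 0.0744 in FoxP1SkmKO KPC mice (SD, n = 12 each), and the genotype difference passed no test (edgeR adjusted p = 0.459 in control and 0.246 in KPC mice). A count over the whole gene includes exons that a Cre deletion leaves in place, so it does not check the genotype labels. The WT control group at CT26 stood apart in the levels of the members. It held the highest or the lowest mean of the 24 groups for 21 members, against 12 for the next group. This was not counted over all genes. Its first library had the lowest median correlation with the other libraries (0.983), and its second had 0.988. FoxP1SkmKO KPC CT18 replicate 2 was close to the lowest (0.984), so CT26 is not alone in holding an unlike library. Results that rest on CT26 are therefore also given without it.

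HSP70 proteins bind unfolded stretches of other proteins in a cycle driven by ATP, DNAJ proteins deliver clients to HSP70 and trigger that cycle, and HSP110 proteins reset it by exchanging nucleotide. HSP90 proteins act later, on nearly folded clients such as kinases and receptors, chaperonins enclose whole proteins in a chamber, and small heat shock proteins hold unfolding proteins without using ATP. HSF1 drives the inducible members after heat or proteotoxic stress. In contracting muscle these systems guard myosin and the proteins of the Z-disc, and core clock output and daily changes in body temperature are both known to act on HSF1 targets in other tissues.

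The chaperone content of the muscle was dominated by a handful of constitutive genes. Small heat shock proteins supplied 38.1% ± 2.53 of the summed FPKM of all members (SD, n = 48), HSP90 genes 17.8%, HSP70 and HSP110 genes 17.6%, DNAJC genes 9.16%, DNAJA genes 6.13%, DNAJB genes 5.84%, chaperonins 4.57%, and heat shock factors 0.817%. The most abundant members were *Hspb6*, which encodes HSP20 (334 ± 41.8 FPKM, SD, n = 48), and *Hsp90ab1*, the constitutive cytosolic HSP90 (319 ± 24.5), whose spreads overlap. They were followed by *Hspb8*, a partner of BAG3 in chaperone-assisted autophagy (151 ± 13.99), *Hspa8*, the constitutive cytosolic HSP70 (151 ± 18.5), *Hspb1*, which encodes HSP27 (113 ± 22.0), and *Hspa9*, the mitochondrial HSP70 (111 ± 6.62). Neighbors within each of these pairs did not differ beyond their spread.

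Stress-inducible cytosolic genes lay far below these. *Hsp90aa1*, the inducible HSP90, had a mean of 8.27 FPKM, *Hspa1a* a mean of 0.827 FPKM, and *Hspa1b* a mean of 0.758 FPKM. *Hspa1a* and *Hspa1b* encode the classical inducible HSP70 and are near-identical copies, so reads may have been divided between them or lost, and their levels rested on 17 to 76 and on 12 to 76 reads per library. Among the factors themselves, *Hsf4* (6.84 FPKM), best known for its role in the lens, and *Hsf1* (6.31 FPKM) were measured at similar levels, ahead of *Hsf2* (2.40 FPKM). Outside these, the leading members of their families were *Dnaja2* (66.7 ± 4.52 FPKM, SD, n = 48), *Dnaja3* (33.4), and *Dnaja4* (13.1) in class A, *Dnajb5* (33.3), *Dnajb12* (19.4), and *Dnajb2* (15.5) in class B, and *Dnajc27* (26.0), *Dnajc21* (15.5), and *Dnajc4* (13.2) in class C. In the ER, BiP (*Hspa5*) had 30.3 and GRP94 (*Hsp90b1*) 12.7 FPKM, and the mitochondrial chaperonin had 65.4 ± 5.27 (*Hspd1*) and 20.6 (*Hspe1*). *Hspb2* (40.8 FPKM) overlaps *Cryab*, which had 222 FPKM, on the opposite strand, so its value is uncertain. *Hspa4l*, a testis-rich HSP110, had 0.532 FPKM. The 11 members left untested had mean levels of at most 0.0926 FPKM, the value of *Hspb9*.

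More members changed with time of day than with tumor or genotype. A 24 h rhythm, tested with a cosine and a sine term averaged over the 4 combinations of genotype and condition, was found in 31 of 68 members (45.6%) at a Benjamini-Hochberg adjusted p under 0.05 in edgeR's quasi-likelihood test. Over all 15637 genes the share was 34.8%. Without CT26, 25 of the 31 members were still called. Without CT34, 20 members were called. The peak-to-trough fold (the ratio of the highest to the lowest point of the fitted curve) had a median of 1.19 among the 31 members and of 1.24 among all 5435 rhythmic genes. Members just inside the threshold included *Hspa4* (adjusted p = 0.0438) and those just outside *Dnajc10* (0.0503), *Hspa12a* (0.0508), *Hspa5* (0.0524), and *Hsp90ab1* (0.0579), by the same edgeR test. Each circadian time was a separate collection within less than 1 full cycle, so circadian time and collection cannot be told apart. Muscle is a mixed tissue, and in these bulk samples fewer cells of a type and less RNA per cell cannot be told apart.

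Fitted peaks gathered from CT30 on. They fell between CT30 and CT42 for 26 of the 31 members, of which 11 peaked between CT30 and CT34 (35.5%, against 22.2% of all rhythmic genes), 9 between CT34 and CT38 (29.0% against 18.3%), and 6 between CT38 and CT42 (19.4% against 9.27%). Only *Hspb1*, *Dnajc4*, *Hsf1*, *Hspb8*, and *Hspb3* peaked between CT18 and CT30 among the members called. In the plot of peak times, *Hspa1b* and *Hspa1a* have the highest folds of the members called and lie at the right edge. That edge, CT42, is CT18 of the next cycle on the 24 h curve. No library was taken between CT38 and CT42, so the 6 members placed there lie between the last and the first sampled time.

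**Figure D1:**
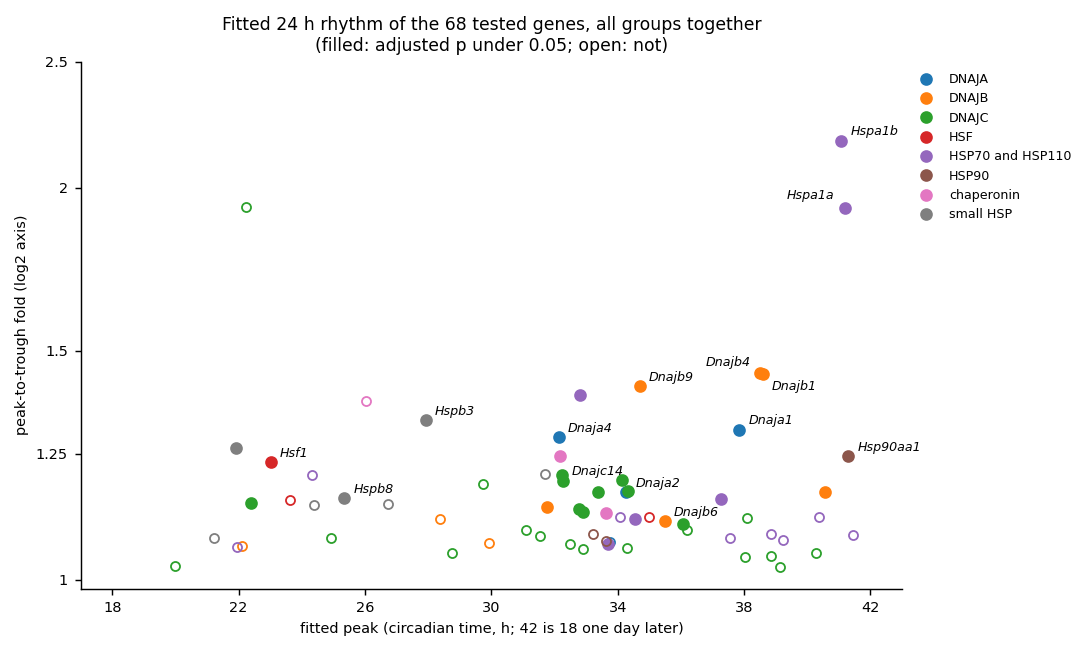
Fitted peak time (horizontal axis, circadian hours) and peak-to-trough fold (vertical axis) of the 24 h rhythm averaged over the 4 combinations of genotype and condition, for 68 members. Filled symbols mark the 31 members with an adjusted p under 0.05, of which 26 peak between CT30 and CT42, and *Hspa1b* has the highest fold of these, 2.17.

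Among the members called, the inducible HSP70 pair had the widest daily range. *Hspa1b* had a mean of 1.06 ± 0.213 FPKM at CT18 (SD, n = 8 per time, all genotypes and conditions), 0.740 ± 0.212 at CT22, 0.599 ± 0.246 at CT26, 0.543 ± 0.114 at CT30, 0.541 ± 0.186 at CT34, and 1.07 ± 0.256 at CT38. All 8 libraries at CT38 (0.783 to 1.55) and all 8 at CT18 (0.796 to 1.35) lay above all 8 at CT30 (0.286 to 0.638). The fitted peak was at circadian hour 41.1 ± 0.534 (SE), just before CT18 of the next cycle, with an amplitude of 0.56 ± 0.08 on the log2 scale (SE, from the middle of the curve to its peak), a fold of 2.17, and an edgeR adjusted p of 9.18e-07. *Hspa1a* followed the same course, from 1.02 ± 0.327 at CT18 to 0.602 ± 0.0839 at CT30 and 1.18 ± 0.262 at CT38, with a fold of 1.93 and a peak at hour 41.2 ± 0.648 (edgeR adjusted p = 4.69e-05). Because the copies share reads, their summed counts were also taken, and these went from 6.01 ± 1.54 CPM (counts scaled to library size) at CT18 to 3.33 at CT30, 3.25 ± 0.977 at CT34, and 6.66 ± 1.27 at CT38.

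The pair lies on chromosome 17 of mm39, *Hspa1a* (ENSMUSG00000091971) at 35188166 to 35191132 and *Hspa1b* (ENSMUSG00000090877) at 35175412 to 35178214, both on the minus strand. Their upstream sequences are shown because they carry the same heat shock element and hardly differ: 3 of 250 bases before the RefSeq start were unlike, and none within the 120 bases printed, which run from position -140 to -21 (GRCm39, chr17:35191153-35191272 and chr17:35178235-35178354, minus strand, 5′ to 3′). Capitals mark a 2-unit element, searched as GAANNTTC or TTCNNGAA on both strands.
Hspa1a: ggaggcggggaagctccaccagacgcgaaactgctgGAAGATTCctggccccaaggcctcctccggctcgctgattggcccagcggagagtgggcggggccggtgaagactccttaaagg
Hspa1b: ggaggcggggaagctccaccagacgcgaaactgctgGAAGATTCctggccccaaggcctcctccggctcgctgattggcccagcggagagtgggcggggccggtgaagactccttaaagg
RefSeq promoters (250 bases before to 50 after the start) were matched for 62 of the 79 members. Some genes have several promoters, so these members had 79 promoters. A 2-unit element lay in 24.1% of the 79 promoters (19, of 17 genes) and in 15.1% of all 32851 promoters. The longer 3-unit element, which overlaps the former, lay in 7.60% of the members' promoters (6, of *Dnajb6*, *Hspd1*, *Hspe1*, and *Hsph1*) and in 0.603% of all promoters. The promoters of *Dnajb6* overlap each other and hold the same stretch, as do those of *Hsph1*. That of *Hspd1* is the stretch of the head-to-head *Hspe1* read on the other strand. These shares therefore count some sites more than once.

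*Dnajb4*, *Dnajb1*, *Dnaja1*, and *Hsp90aa1*, which act in the cytosol with HSP70 or as the inducible HSP90, also had their highest mean at CT38. *Dnajb4*, a class B cochaperone close to *Dnajb1*, had its lowest mean at CT26 (5.20 ± 0.403 FPKM, SD, n = 8) and its highest at CT38 (7.72 ± 0.784). The 8 libraries at CT38 (6.50 to 8.78) lay above all 24 libraries of CT22, CT26, and CT30, whose highest value was 6.47. Its rhythm had a fold of 1.44 and a peak at hour 38.5 ± 0.356 (edgeR adjusted p = 4.70e-11). *Dnajb1*, the main stress-inducible HSP40, had the same fold of 1.44 and a peak at hour 38.6 ± 0.810, on wider spread: 1.68 ± 0.310 FPKM at CT26 and 2.81 ± 0.539 at CT38 (edgeR adjusted p = 0.000846).

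*Dnaja1*, a class A cochaperone that overlaps *Smu1* on the opposite strand, stayed between 3.27 ± 0.326 and 3.75 ± 0.223 FPKM from CT18 to CT34 and reached 4.76 ± 0.509 at CT38 (fold 1.30, peak at hour 37.8 ± 0.584, edgeR adjusted p = 5.31e-06). *Hsp90aa1* went from 7.25 ± 0.529 FPKM at CT34 to 9.76 ± 1.11 at CT38, and all 8 libraries at CT38 (8.64 to 11.9) were above all 8 at CT34 (6.53 to 8.01). Its fitted fold was 1.24, with a peak at hour 41.3 ± 0.740 (edgeR adjusted p = 0.000316). *Hsph1*, the HSP110 that exchanges nucleotide for these HSP70 proteins, passed no rhythm test (edgeR adjusted p = 0.0971).

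Windows of 30 bases near the RefSeq start are given for 5 of these and related rhythmic genes, chosen because they hold a 2-unit element or an E-box. Each is 5′ to 3′ on the strand of the gene, with the element in capitals, at the GRCm39 positions chr3:151899478-151899507 (*Dnajb4*), chr4:40722333-40722362 (*Dnaja1*), chr5:135916655-135916684 (*Hspb1*), chr1:55127212-55127241 (*Hspe1*), and chr12:44256941-44256970 (*Dnajb9*).
Dnajb4: ttcgttcgctgTTCTAGAAagtacagagac
Dnaja1: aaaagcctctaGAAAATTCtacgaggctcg
Hspb1: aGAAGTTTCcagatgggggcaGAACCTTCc
Hspe1: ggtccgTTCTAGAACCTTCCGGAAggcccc
Dnajb9: acaacagttttcCACGTGcgcgtagggcgc
The *Hspe1* window holds overlapping elements in a row, and the *Hspb1* window holds 2 that do not overlap. The *Dnajb4* window runs from position -25 to 5, past the start. No 2-unit element lay in the promoters matched for *Dnajb1*, and no promoter was matched for *Hsp90aa1*. The E-box CACGTG, the letters bound by CLOCK and BMAL1, lay in 11.4% of the members' promoters and in 7.15% of all promoters, and the CCAAT box in 41.8% and 37.4%. A match describes letters in the window and no binding.

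**Figure D2:**
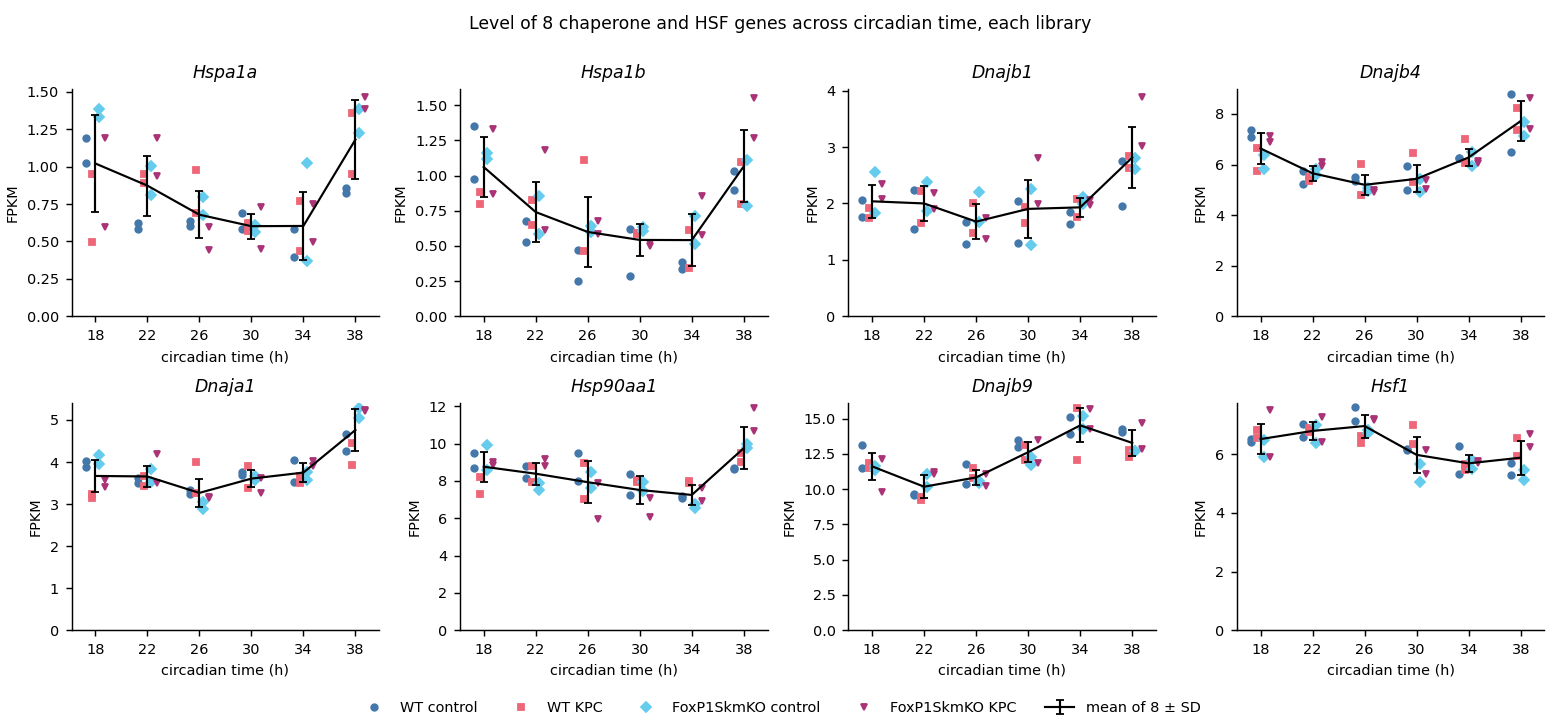
FPKM (vertical axis) against circadian time (horizontal axis) for *Hspa1a*, *Hspa1b*, *Dnajb1*, *Dnajb4*, *Dnaja1*, *Hsp90aa1*, *Dnajb9*, and *Hsf1*, with each of the 48 libraries as a point colored by genotype and condition and the mean of 8 libraries ± SD in black. The first 6 genes have their highest mean at CT38, *Dnajb9* at CT34 (14.5 FPKM), and *Hsf1* at CT26 (6.97 FPKM).

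*Hsf1* and 3 of the 7 small heat shock protein genes tested (*Hspb1*, *Hspb3*, and *Hspb8*) were rhythmic with peaks before CT30. The other 4 small heat shock protein genes were not called, so 42.9% of that family were called, against 34.8% of all genes. *Hsf1* had its highest means at CT22 (6.80 ± 0.318 FPKM) and CT26 (6.97 ± 0.393) and its lowest at CT34 (5.69 ± 0.295, SD, n = 8 each). All 8 libraries at CT26 (6.40 to 7.63) were above all 8 at CT34 (5.33 to 6.30). The fold was 1.23 and the peak fell at hour 23.0 ± 0.550 (edgeR adjusted p = 2.11e-06), when *Hspa1a*, *Hspa1b*, and *Hsp90aa1* were past their peaks.

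*Hspb1* had means of 93.7 ± 8.09 FPKM at CT34, 125 ± 14.03 at CT22, and 130.1 ± 34.6 at CT26 (fold 1.26, peak at hour 21.9 ± 0.971, edgeR adjusted p = 0.00683). The spread at CT26 was wide (91.9 to 190.7), with the highest value in a WT control mouse, and without CT26 the rhythm of *Hspb1* was still called (edgeR adjusted p = 0.00567). *Hspb3*, a muscle small heat shock protein, peaked at hour 27.9 ± 0.764 with a fold of 1.33 (edgeR adjusted p = 0.000497). *Hspb8* had 171 ± 15.8 FPKM at CT26 and 140 ± 8.31 at CT34 (fold 1.16, edgeR adjusted p = 0.000576), but its highest values were those of the 2 WT control mice at CT26 (200.2 and 178.5). Without CT26 its rhythm was not called (edgeR adjusted p = 0.207). Markers of other cells in the tissue also peaked early in the sampled day: 5 of 5 fibroblast markers between hours 19.9 and 23.5, 7 of 9 macrophage and neutrophil markers between 20.1 and 21.6, and 3 of 4 endothelial markers between 23.5 and 24.3. Early peaks were not limited to these cells. Of 10 fast muscle markers, 4 were called, with peaks from hour 22.6 (*Ckm*) to 30.6, and 2 of 5 erythroid markers peaked from 20.5 to 23.4. The called slow fiber marker (of 9) peaked at 31.3 and the called adipocyte marker (of 6) at 29.4. The part of any of these cells in the early peaks was not tested.

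Chaperones of the ER and of mitochondria were rhythmic in part, and the hours of the ER members overlapped those of the cytosolic genes above. *Dnajb9*, an ER cochaperone of BiP and a target of the unfolded protein response, had the lowest adjusted p of all members, with means of 10.2 ± 0.812 FPKM at CT22, 10.8 ± 0.557 at CT26, 12.6 ± 0.724 at CT30, 14.5 ± 1.21 at CT34, and 13.3 ± 0.901 at CT38. All 8 libraries at CT34 (12.1 to 15.8) lay above all 16 of CT22 and CT26, whose highest value was 11.8. Its peak was at hour 34.7 ± 0.351 and its fold 1.41 (edgeR adjusted p = 3.99e-11). BiP itself (*Hspa5*) stayed within means of 29.3 to 31.9 FPKM. Of the 11 ER members tested, 5 were rhythmic (45.5%, all genes 34.8%), with peaks from hour 31.7 to 40.6. Without CT26, *Dnajb14*, *Dnajc25*, and *Hspa13* were not called (edgeR adjusted p = 0.182, 0.0781, and 0.302). The later hours among the ER members rest on these genes.

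In mitochondria 6 of 9 members tested were rhythmic (66.7%, all genes 34.8%), all with peaks from hour 32.2 to 36.1 and with folds of 1.10 to 1.24. Without CT26, *Dnajc28* was not called (edgeR adjusted p = 0.222). *Dnajc19*, another of the 6 (6.63 FPKM), overlaps *Fxr1* (39.98 FPKM) on the opposite strand, so its value is uncertain. The 6 included *Hspa9* (fold 1.11, edgeR adjusted p = 0.000988) and both subunits of the chaperonin. These were *Hspd1* (HSP60, 61.0 ± 3.35 FPKM at CT18 and 69.2 ± 3.88 at CT34, fold 1.12) and *Hspe1* (HSP10, 15.8 ± 2.21 at CT18 and 23.0 ± 2.63 at CT38, fold 1.24). Start sites of *Hspd1* and *Hspe1* lie head to head and the genes overlap on opposite strands, and the strand used in counting was not given in the sources used here. The class A cochaperones *Dnaja2* (62.4 ± 2.34 FPKM at CT22 and 72.6 ± 2.70 at CT34, edgeR adjusted p = 7.90e-08) and *Dnaja4* (10.6 ± 1.42 at CT18 and 14.7 ± 1.24 at CT30, edgeR adjusted p = 0.000322) peaked in the same hours, 34.3 and 32.1. So did *Dnajc14*, an ER membrane J protein not counted among the ER members above, at hour 32.3 ± 0.572. It went from 3.76 ± 0.295 FPKM at CT18 to 4.47 ± 0.259 at CT30 (fold 1.19, edgeR adjusted p = 4.84e-06).

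Lists of related genes gave a context of time. Of 12 textbook heat-inducible members, 8 were rhythmic (66.7%), and of the other 56 members 23 (41.1%). Over all genes the share was 34.8%. The lists were chosen with earlier results of these data known, so the counts in this paragraph are descriptions only. Outside the families, 10 of 14 genes of the cytosolic chaperonin TRiC and prefoldin were rhythmic, with peaks from hour 28.3 to 35.1, as were 9 of 17 ER folding genes, 4 of 22 cytosolic cochaperones, and 2 of 9 mitochondrial cochaperones. All 7 clock genes tested were rhythmic, from *Arntl* at hour 21.7 to *Per2* at hour 34.8, with folds of 2.00 to 16.5, and of 2 cold-inducible genes *Cirbp* was called (fold 1.21) and *Rbm3* was not. Of 7 stress immediate early genes 3 were rhythmic, with folds of 1.35 to 1.93.

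The question of whether a tumor or the loss of FOXP1 altered these rhythms was tested by the difference of the cosine and sine terms between groups. No member differed between WT KPC and WT control mice (lowest edgeR adjusted p = 0.454, *Dnajc4*), between FoxP1SkmKO KPC and control mice (0.0732, *Dnajc5g*), or between FoxP1SkmKO and WT control mice (0.880). DESeq2 also called none. Over all genes the shares called by edgeR were 0%, 0.0512%, and 0%. At an unadjusted p under 0.05, 5, 6, and 3 of 68 members passed in edgeR, beside 8.55%, 9.34%, and 5.17% of all genes.

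Within each combination of 12 libraries, *Dnajb9* peaked at hours 34.2 to 35.0 with folds of 1.36 to 1.47, and *Dnajb4* at hours 37.0 to 39.3 with folds of 1.40 to 1.57, and both were called in all 4 (edgeR adjusted p from 4.67e-05 to 0.00384). *Hspa1b* was more uneven. It had a fold of 3.28 in WT control (edgeR adjusted p = 0.000952), 1.53 in WT KPC (0.445), 1.87 in FoxP1SkmKO control (0.139), and 2.52 in FoxP1SkmKO KPC mice (0.0127). The difference between the WT groups did not pass (edgeR adjusted p = 0.558, unadjusted p = 0.0338). *Hsp90aa1* was called in FoxP1SkmKO KPC mice (fold 1.60) and had folds of 1.07 to 1.26 in the other 3 combinations.

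By the rule used in the study, a sinusoid fitted to FPKM in each combination with an unadjusted p under 0.01, 10 of 77 members with any variation were rhythmic in WT control (all genes 4.92%), 8 of 77 in WT KPC (4.22%), 8 of 79 in FoxP1SkmKO control (4.07%), and 6 of 77 in FoxP1SkmKO KPC mice (2.63%). Among genes with a mean of at least 1 FPKM, the shares were 14.3% of members against 10.5% of 10007 genes in WT control, 12.7% against 8.84% in WT KPC, 9.52% against 9.19% in FoxP1SkmKO control, and 7.94% against 5.64% in FoxP1SkmKO KPC mice. *Dnajb9* passed in all 4 combinations, and *Dnaja2*, *Dnajb4*, *Dnajc14*, and *Hspa1b* in 3. For *Dnajb4* and *Hspa1b* the combination that did not pass was WT KPC. The paper names *Hspa1b* among genes whose rhythm was lost in WT KPC but kept in FoxP1SkmKO KPC mice. With p-values adjusted over all genes there were 2 calls in place of 32.

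The tumor moved few chaperone genes, and by small amounts. Averaged over circadian time and both genotypes, 4 of 68 members changed (5.88%), a share near the 5.29% of all genes. *Hspa12a*, a divergent HSP70, and *Hspa8* fell, and *Dnajb12* and *Dnajc13* rose. The median log2 fold change of the members was -0.01 and that of all genes 0.00.

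*Hspa12a* had a median of 1.17 FPKM in WT control mice (1.05 to 1.43) and of 1.03 in WT KPC mice (0.664 to 1.41). In FoxP1SkmKO mice the medians were 1.203 (1.06 to 1.45) and 0.953 (0.711 to 1.33). The groups overlapped in each genotype, yet the KPC mean was lower at all 6 times in both. The log2 fold change was -0.31 ± 0.06 (SE), or 19.6% lower (95% interval of the log2 fold change -0.44 to -0.19, edgeR adjusted p = 0.00128), and it was -0.27 ± 0.08 in WT (edgeR adjusted p = 0.0985) and -0.36 ± 0.08 in FoxP1SkmKO mice (0.0392), where *Hspa12a* was the only member called (1.47%, all genes 0.428%). That call was lost when CT18, CT26, CT30, CT34, or CT38 was left out.

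*Hspa8* had a median of 158 FPKM in WT control mice (145 to 182) and 139.6 in WT KPC mice (116 to 190), and medians of 156 (136 to 194) and 145 (112 to 175) in FoxP1SkmKO mice. These ranges overlap widely. The log2 fold change over both genotypes was -0.13 ± 0.04 (edgeR adjusted p = 0.0392), with the same direction in 11 of 12 comparisons by time. The call was lost when CT18, CT30, CT34, or CT38 was left out (edgeR adjusted p up to 0.201).

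*Dnajb12*, an ER membrane J protein that works in the disposal of misfolded membrane proteins, had a median of 18.8 FPKM in WT control (17.5 to 20.7) and 20.02 in WT KPC mice (18.6 to 21.7), and of 18.5 (15.9 to 21.5) and 19.8 (17.6 to 23.6) in FoxP1SkmKO mice. It was higher in KPC mice in 12 of 12 comparisons, by 0.12 ± 0.02 on the log2 scale (edgeR adjusted p = 0.00279). *Dnajc13*, which acts on endosomes in receptor recycling, had a median of 3.28 FPKM in WT control (2.27 to 3.68) and 3.37 in WT KPC mice (2.87 to 4.08), and of 3.16 (2.92 to 3.76) and 3.54 (2.996 to 3.69) in FoxP1SkmKO mice. Its log2 fold change was 0.11 ± 0.03 (edgeR adjusted p = 0.00962). Without CT26 the call for *Dnajc13* was lost (edgeR adjusted p = 0.0784).

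In WT mice alone *Hsf4* was the only member called (1.47%, all genes 1.79%). It had a median of 5.94 FPKM in control (4.86 to 8.38) and 7.44 in KPC mice (5.72 to 8.84), a log2 fold change of 0.23 ± 0.06 in the same direction at 5 of 6 times (edgeR adjusted p = 0.0495). The value sits at the threshold, and leaving out 1 library at a time kept the call in 9 of 48 fits. The call for *Hsf4* was lost without CT22, CT30, CT34, or CT38 (edgeR adjusted p from 0.102 to 0.214), with the replicate number as a block (edgeR adjusted p = 0.0540), and under DESeq2 (adjusted p = 0.0516). In FoxP1SkmKO mice *Hsf4* had a log2 fold change of 0.05 ± 0.06. The KPC effect differed between the genotypes for 0 of 68 members and 0% of all genes by edgeR, and for no member by DESeq2. At an unadjusted p under 0.05, 5 members passed in edgeR (all genes 6.52%).

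**Figure D3:**
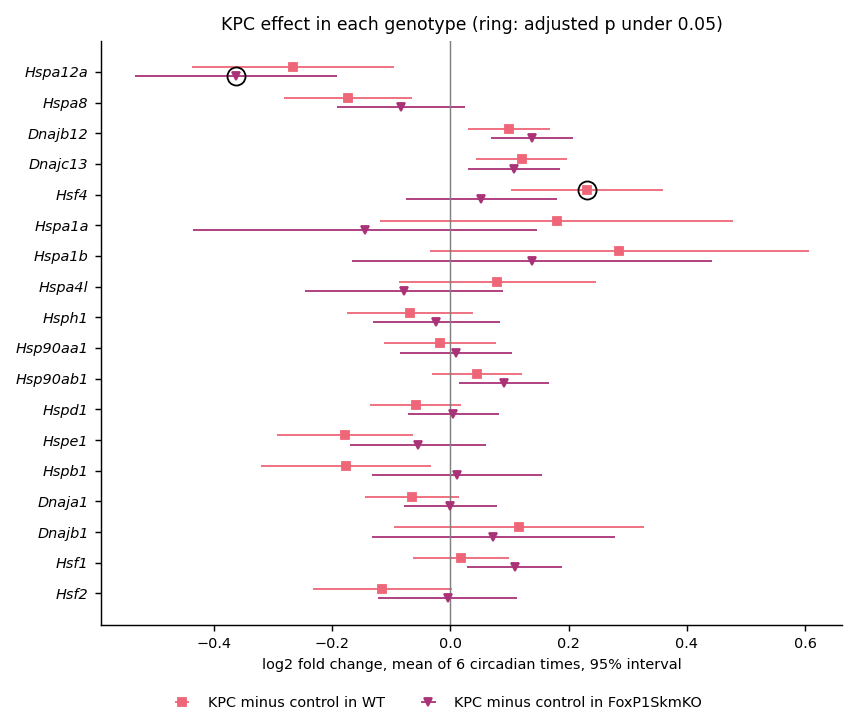
Log2 fold change of KPC against control mice averaged over 6 circadian times (horizontal axis) for 18 members (vertical axis), in WT and in FoxP1SkmKO mice, with 95% intervals. Rings mark an adjusted p under 0.05, which only *Hsf4* in WT (0.23) and *Hspa12a* in FoxP1SkmKO mice (-0.36) reached.

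The textbook heat-inducible genes did not move together. Of the 12 listed, none was called in WT or FoxP1SkmKO mice taken singly and averaged over circadian time (lowest edgeR adjusted p = 0.0876 and 0.295). Their median log2 fold changes were -0.04 and 0.00. Of the same 12, *Hspa8* was called lower over both genotypes (-0.13, edgeR adjusted p = 0.0392). *Hspe1* was called lower in WT mice at CT26 (-0.56, edgeR adjusted p = 0.0107). *Hspa1b* had a log2 fold change of 0.29 ± 0.16 in WT and 0.14 ± 0.15 in FoxP1SkmKO mice, *Hspa1a* of 0.18 ± 0.15 and -0.14 ± 0.14, *Hsp90aa1* of -0.02 ± 0.05 and 0.01 ± 0.05, and *Hsf1* of 0.02 ± 0.04 and 0.11 ± 0.04 (edgeR adjusted p from 0.219 to 0.965). For *Hsp90aa1* the 95% interval in WT ran from -0.11 to 0.08, whereas for *Hspa1b* it ran from -0.04 to 0.61. The interval of *Hspa1b*, a gene of few reads, was thus several times the wider.

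The change of *Hspa12a* and *Hspa8* was measured beside a change in other cell types. All 5 fibroblast markers fell over both genotypes (*Col1a1* by 0.80 on the log2 scale), and their summed level went from a median of 52.9 FPKM (26.2 to 89.5) in WT control to 32.2 (16.9 to 72.9) in WT KPC mice and from 46.8 (23.7 to 67.5) to 26.6 (20.0 to 77.8) in FoxP1SkmKO mice. Endothelial *Kdr* and *Cdh5*, 2 of 4 markers, fell by 0.25 and 0.12, with summed medians of 61.6 FPKM in WT control and 59.2 in WT KPC mice. *S100a8* and *S100a9* rose by 3.02 and 2.18, and no other of the 9 macrophage and neutrophil markers tested was called. Of the other lists, *Fabp4* of 6 adipocyte markers fell by 0.15 and *Actn3* of 10 fast muscle markers rose by 0.18, and no slow fiber or erythroid marker was called. Among related cochaperones outside the families, *Bag6* rose by 0.09 (1 of 22) and *Vbp1* of prefoldin fell by 0.11 (1 of 14). The part of these cell types in the values above was not tested.

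At single circadian times, WT mice at CT26 were the exception. There 3 of 68 members were called (4.41%, all genes 7.17%). In WT mice no member was called at CT18, CT22, CT30, CT34, or CT38, where the shares of all genes were 0%, 0%, 0.0064%, 0%, and 0.0256%, and in FoxP1SkmKO mice none at any of the 6 times, where they were 0.0192%, 0%, 0.0384%, 0%, 0%, and 0.0064%. At an unadjusted p under 0.05, edgeR passed 5 to 11 of 68 members at those 5 times in WT (all genes 4.77% to 9.82%). In FoxP1SkmKO mice it passed 1 to 9 (all genes 4.05% to 13.8%), and DESeq2 called 1 there, *Dnajb12*.

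The 2 WT control mice at CT26 had 2.44 and 2.27 FPKM of *Dnajc13*, and the 2 KPC mice 3.59 and 2.87. They had 28.6 and 24.04 FPKM of *Hspe1* against 18.6 and 17.3, and 17.4 and 14.6 FPKM of *Dnajc8*, a J protein of the splicing machinery, against 12.7 and 11.5. None of these ranges overlapped. The log2 fold changes were 0.45 ± 0.10 (edgeR adjusted p = 0.00313), -0.56 ± 0.14 (0.0107), and -0.41 ± 0.12 (0.0380).

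The WT control mice at CT26 differed from other libraries too. *Dnajc13* was lower in both WT control libraries at CT26 than in each of the other 46 libraries, and *Hspb8* was higher. FoxP1SkmKO control mice at CT26 had 2.92 and 3.16 FPKM of *Dnajc13* and 20.7 and 18.4 of *Hspe1*, nearer to the WT KPC mice. The same 2 WT control libraries had muscle marker sums of 75678 and 67498 FPKM (median of WT control mice 62481) and erythroid marker sums of 330.2 and 246 FPKM (median 167), and at CT26 *Per2* and *Per3* were also called higher in WT KPC mice. The part of these differences was not tested.

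**Figure D4:**
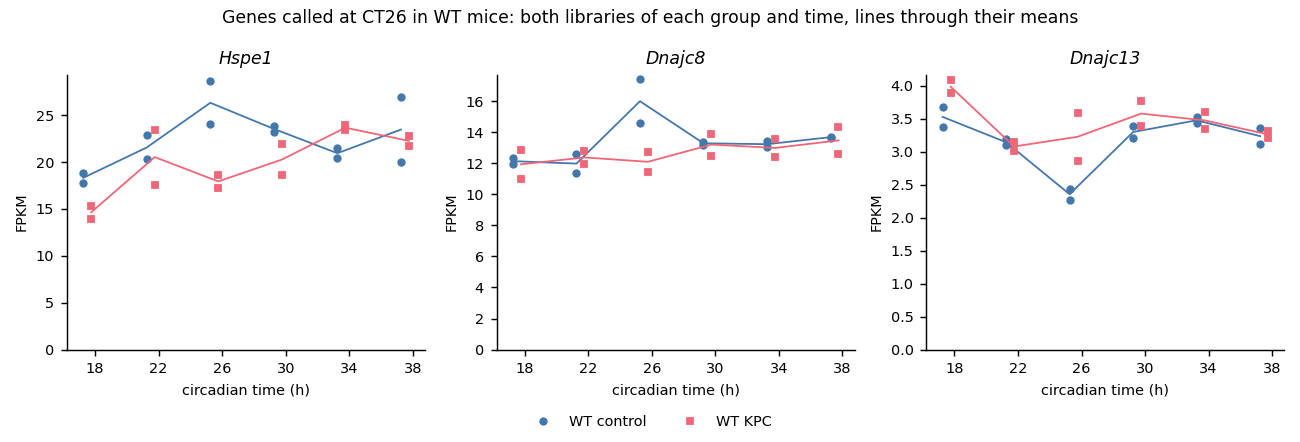
FPKM (vertical axis) of *Hspe1*, *Dnajc8*, and *Dnajc13* in each WT control and WT KPC mouse by circadian time (horizontal axis). At CT26 the 2 control mice had 28.6 and 24.04 FPKM of *Hspe1*, the 2 KPC mice 18.6 and 17.3, and no difference at the other 5 times was called for these genes.

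The KPC effect in WT mice at CT26 differed from its mean over the other 5 times for 2 members (2.94%, all genes 5.68%), *Dnajc13* and *Dnajc5*. Its difference between the genotypes at CT26 was called for 0 of 68 members (all genes 0.345%, lowest edgeR adjusted p = 0.259), with 6 members at an unadjusted p under 0.05. This comparison was chosen after the data had been seen.

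For the deletion of FoxP1 in muscle fibers, the single member called in control mice (1.47%, all genes 3.44%) was *Dnajc5g*, which rests on 2 reads against 69 and entered the test only through FoxP1SkmKO mice, so the count says nothing of the other members. In KPC mice none was called by edgeR (all genes 0.32%) or by DESeq2. At an unadjusted p under 0.05, 3 of 68 members passed there in edgeR (all genes 10.8%). In control mice 22 of 68 log2 fold changes were positive, with a median of -0.03 (all genes 0.00). At an unadjusted p under 0.05, 14 of 68 members passed in control mice by edgeR, beside 17.2% of all genes. The lowest adjusted p after the called gene was that of *Dnajc8*, with 13.4 ± 1.53 FPKM in WT and 11.9 ± 0.959 in FoxP1SkmKO control mice (SD, n = 12, log2 fold change -0.17 ± 0.05, edgeR adjusted p = 0.0507). *Hspa1a* and *Hspa1b* each had a log2 fold change of 0.36 (edgeR adjusted p = 0.181 and 0.211), while *Fos*, an immediate early gene, rose by 1.21. Beside these, 2 of 9 slow fiber markers (*Myl3*, -0.50, and *Csrp3*, -0.97) and 2 of 10 fast muscle markers (*Tnnt3*, -0.14, and *Tnni2*, -0.15, log2 fold changes) fell in FoxP1SkmKO control mice, and their part was not tested.

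*Dnajc5g* is a relative of the cysteine string protein gene *Dnajc5* known mainly from testis (ENSMUSG00000053856, mm39 chromosome 5, 31263629 to 31269870, plus strand). It was nearly silent. The 12 WT control libraries held 2 reads in all, in 2 libraries, and the 12 FoxP1SkmKO control libraries 69 reads in 11 libraries, from 0 to 25 each. In KPC mice the sums were 4 reads in 2 WT libraries and 58 reads in 10 FoxP1SkmKO libraries.

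Per library size the ratio of summed *Dnajc5g* reads was 34.4 in control mice (95% interval 9.17 to 289.9, counting error only) and 14.3 in KPC mice (5.30 to 54.3). The fitted log2 fold change in control mice was 4.17 ± 1.01 (edgeR adjusted p = 0.0187), a value that depends on how zeros are offset and that was not called without CT18, and in KPC mice 3.66 with an adjusted p of 0.177. The gene passed the filter on low counts only through FoxP1SkmKO mice, so it could be tested only because it differed.

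*Slc30a3*, which encodes a zinc transporter, overlaps *Dnajc5g* on the opposite strand and had 0 reads in WT control and 158 in FoxP1SkmKO control libraries. Without knowledge of the strand, reads of the overlapping genes cannot be told apart. Of the neighbors, *Ucn* was higher by 0.66 on the log2 scale (edgeR adjusted p = 0.000413), and the log2 fold change of *Trim54* was -0.08 (0.278).

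**Figure D5:**
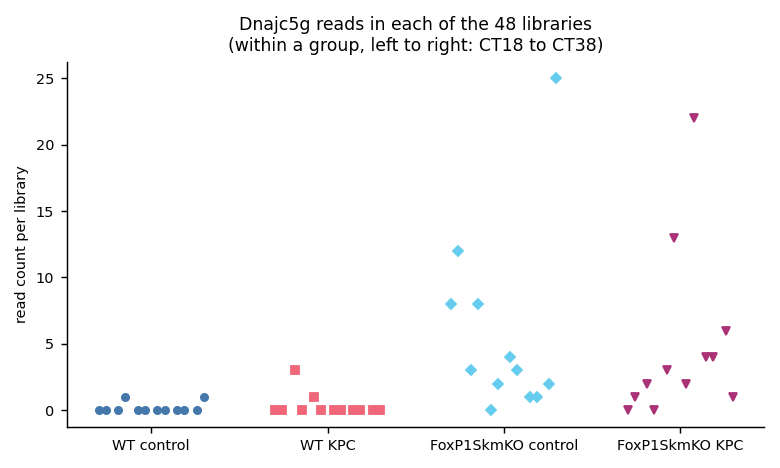
Read count of *Dnajc5g* in each library (vertical axis) for the 4 combinations of genotype and condition (horizontal axis, 12 libraries each). Sums are 2 reads in WT control, 4 in WT KPC, 69 in FoxP1SkmKO control, and 58 in FoxP1SkmKO KPC mice.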

How the data were processed

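Poly(A) RNA of tibialis anterior muscle was sequenced by the authors in 48 libraries, 2 mice for each genotype, condition, and circadian time. Raw read counts per gene were deposited by the authors, together with FPKM computed from the counts, the gene length, and a scaled library size. The paper's methods name STAR and HTSeq, whereas the submitters' processing notes name HISAT2 2.0.5 and DESeq2 1.20.0, with build mm39. Columns of the authors' own comparisons (fold changes and p-values) and counts divided by size factors were not used.

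Groups were taken from the sample labels. Between the 2 mice of a group, the chi-square per degree of freedom of the counts was 5.15 to 17.4, so neither mouse of a group was a repeat of the other. Tests take mice as replicates. Intervals on summed reads cover counting error only.

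Counts were analysed with edgeR 4.0.16 and limma 3.58.1 in R 4.3.3 and with DESeq2 1.42.0 as an alternative. After filterByExpr (15637 genes) and TMM scaling, a quasi-likelihood fit of the 24 group means (24 residual degrees of freedom) gave the KPC and FoxP1SkmKO effects at each time and averaged over the 6 times. A second model with a basal level, a cosine, and a sine of 24 h for each of the 4 combinations gave rhythms and their differences. Fits covered all genes, p-values were adjusted over all of them by Benjamini-Hochberg, and 0.05 was the threshold. Sinusoids were also fitted to FPKM in each combination with Python 3.11.15 (numpy 2.4.6, scipy 1.17.1, pandas 2.3.3) and an F test at an unadjusted p under 0.01. The tests were tested on simulated data drawn from the real means of 15637 genes. At a log2 fold change of 0.5, 99% of the changed genes were called for the KPC effect in WT, and at an amplitude of 0.2, 91% of the rhythmic genes. Altered genes were a sample of the better expressed genes, and *Hspa1a* and *Hspa1b* lay below their range. The KPC effect of *Hsf4* in WT mice (0.23) and the median amplitude of the members called (0.127) were below these sizes. Recovery at such smaller sizes was not tested.

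Promoter sequences came from RefSeq (table of GRCm38.p6), and positions in GRCm39 from an exact match of each sequence. The members and the gene lists were chosen with earlier results of these data known. Named genes were the members called in a comparison (at most the 12 with the lowest adjusted p), the textbook heat-inducible genes, *Hsf1*, *Hsf2*, and the 3 most abundant members of each family. The values of 1 member are not reported here. Others are named as examples chosen after their values were seen. Alternatives were no filter, RLE scaling, DESeq2, the replicate number as a block, the 4 libraries of each comparison, log2(FPKM + 1) and log2(FPKM + 0.1), each library left out, and, chosen after seeing the data, each circadian time left out and the contrasts of CT26 with other times.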

Additional observations from a re-analysis of the deposited data

Results flagged for a closer look

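The KPC effect in WT mice at CT26 differed from its mean over the other 5 circadian times for 2 members of the chaperone families by a test of that difference. For *Dnajc13* the difference was 0.39 on the log2 scale (SE 0.10, edgeR adjusted p = 0.0210), from 2.44 and 2.27 FPKM in the control mice and 3.59 and 2.87 FPKM in the KPC mice at CT26. For *Dnajc5*, which encodes the cysteine string protein of secretory vesicles, it was 0.29 (SE 0.08, edgeR adjusted p = 0.0322), from 7.63 and 8.41 FPKM in the control mice and 9.53 and 9.18 FPKM in the KPC mice. For *Dnajc5* the KPC effect at CT26 itself was not called (log2 fold change 0.22, edgeR adjusted p = 0.0785). With no filter on low counts both calls were lost (edgeR adjusted p = 0.117 for *Dnajc13* and 0.319 for *Dnajc5*). Both differences rest on 2 control and 2 KPC mice at CT26. The control mice of that time formed the group with the highest or the lowest mean for the most members. Their part in the differences was not tested.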

How the results depend on the processing

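Counts of members called moved by over 1.5 times in these cases. For the KPC effect in WT mice (1 member), no filter on low counts gave 5 and leaving out CT30, CT34, or CT38 gave 0. For the KPC effect in FoxP1SkmKO mice (1), DESeq2 and leaving out CT22 gave 2 each, and leaving out CT18, CT26, CT30, CT34, or CT38 gave 0. For the FoxP1SkmKO effect in control mice (1), DESeq2 and no filter gave 3 each, leaving out CT18 gave 0, CT22 2, and CT30 3; DESeq2 gave *Dnajc5g* no adjusted p and called *Dnaja2*, *Dnajb5*, and *Dnajc8*. No filter gave 1 for the FoxP1SkmKO effect in KPC mice (0), 10 for single times in WT (3), and 4 for single times in FoxP1SkmKO mice (0), where DESeq2 gave 1. No filter also gave 3 for the rhythm difference of KPC and control in FoxP1SkmKO mice (0) and 2 for that of the genotypes (0). The fit of 4 libraries gave 1 for WT mice at CT26 (3), without CT34 the rhythm over all groups gave 20 (31), and an adjusted p under 0.05 gave 2 in place of 32 rhythm calls summed over the 4 combinations. The cause of these shifts was not tested.

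Leaving out 1 library at a time, on the same genes, gave 0 to 2 members for the KPC effect in WT, 0 to 3 in FoxP1SkmKO mice, 3 to 7 over both genotypes, 0 to 4 for the FoxP1SkmKO effect in control mice, 0 to 0 in KPC mice, 0 to 0 for the difference of the KPC effect between genotypes, 29 to 35 for the rhythm over all groups, 0 to 0, 0 to 1, and 0 to 0 for the rhythm differences (KPC in WT, KPC in FoxP1SkmKO mice, genotype), and 0 to 5 for WT mice at CT26. *Dnajc5g* lost its call without FoxP1SkmKO control CT26 replicate 2, CT34 replicate 1, or CT34 replicate 2. *Hspe1* and *Dnajc8* at CT26 lost theirs without WT control CT26 replicate 1, WT KPC CT26 replicate 1, or WT KPC CT26 replicate 2, and *Dnajc13* at CT26 without WT KPC CT26 replicate 1. *Hspa12a* in FoxP1SkmKO mice kept its call in 35 of 48 fits and *Hspa8* over both genotypes in 25, while *Hspa12a*, *Dnajb12*, and *Dnajc13* over both genotypes and the 12 rhythms with the lowest adjusted p kept theirs in all 48. Over all named members, alternatives, and left-out libraries, 1149 results stayed on their side of the threshold, 107 lost it, and none reversed; DESeq2's test of rhythm gives no amplitude and is not among them.

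With the replicate number as a block, the KPC effect in WT mice gave 0 members and the FoxP1SkmKO effect in control mice 2 (*Dnajc5g* and *Dnajc8*), and other counts stayed within 1.5 times. Replicate numbers are shared by label only: over 276 pairs of groups, deviations of equally numbered mice correlated from -0.302 to 0.338 with a median of -0.0083.

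Depth limits the low members. *Hspa1a*, *Hspa1b*, *Hspb11*, and *Dnajc5g* rested on at most 76, 76, 31, and 25 reads per library, and 2 mice per group limit every value at a single time.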
